A study of Mus musculus with 2 samples.

Results

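The EGF family of growth factors and the ErbB receptor tyrosine kinases that bind them were followed in stromal cells isolated from the uterus of C57BL/6 mice at pregnancy day 4. The members were 10 genes, the ligand genes Tgfa, Hbegf, Ereg, Btc, Egf, Nrg1 and Nrg4 and the receptor genes Egfr, Erbb2 and Erbb3. They were taken by name, with every probe set whose platform annotation gives that gene alone, which made 22 of 34945 probe sets with a single gene symbol, and 10 of 18193 genes. RNA from the stromal cells of Msx1Msx2 floxed control mice was hybridized to 1 Affymetrix 3' expression array, and RNA from Msx1Msx2-null mice to another. The null mice carried floxed alleles of the homeobox transcription factor genes Msx1 and Msx2, removed by PRcre, a Cre recombinase expressed from the progesterone receptor gene. Both epithelium and stroma of the uterus express that receptor, so the deletion need not be limited to stroma. Whether the controls carried Cre, and the age of the mice, are not given in the sources used here. The RNA of each genotype was pooled, from 5 mice in one protocol text and 4 in another. Each value is thus a single reading of a pool, with no replicate error and no test, and genotype, pool and hybridization cannot be told apart. In such bulk RNA, fewer cells of a type and less RNA per cell cannot be told apart either.

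EGF family ligands are made as membrane proteins and released by metalloproteases of the ADAM family. TGF-alpha and EGF bind EGFR, HB-EGF, betacellulin and epiregulin bind EGFR and ErbB4, neuregulin 1 binds ErbB3 and ErbB4, and neuregulin 4 binds ErbB4. ErbB2 has no known ligand and ErbB3 has little kinase activity, so both signal mainly in pairs with other ErbB proteins, through the Ras-ERK and PI3K-Akt routes. In the mouse uterus HB-EGF is known as an early signal between the blastocyst and the luminal epithelium around attachment.

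Tgfa and Nrg4 were the members with the largest differences. Of the 3 ligand genes with a usable signal, these 2 were lower in the null array by more than 2-fold and Hbegf was within 2-fold. All 3 receptor genes were within 2-fold, with log2 ratios (null minus control) between 0.03 and 0.36. The other 4 ligand genes, Ereg, Btc, Egf and Nrg1, gave signals too low to compare. A signal counted as usable when it reached the median of its array's probe sets, a floor of 31.0 (control) or 30.1 (null). By this floor 11 of the 22 probe sets, from 6 genes, were usable in at least 1 array and 9 in both. A gene was represented by its brightest probe set, and 2-fold was the size that counted as a call. Across the arrays 1.80% of 11833 usable genes were 2-fold or more lower in the null array and 1.59% at least 2-fold higher, 3.39% in all. In the dimmest tertile of genes by signal, which holds Tgfa, Nrg4 and Erbb2, 2.97% were at least 2-fold lower.

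The promoter windows of the pair of ligand genes that differed are printed here next to that of Egfr, the receptor gene with the most probe sets, so that their sequence can be set side by side. Each runs from 250 bases before to 50 bases after the transcription start in RefSeq, build GRCm38.p6, and is written on the gene's strand. Capitals mark the homeodomain core TAAT (or ATTA on the other strand) and the GC box GGGCGG (or CCGCCC).
Tgfa, chr6:86194972-86195271, plus strand: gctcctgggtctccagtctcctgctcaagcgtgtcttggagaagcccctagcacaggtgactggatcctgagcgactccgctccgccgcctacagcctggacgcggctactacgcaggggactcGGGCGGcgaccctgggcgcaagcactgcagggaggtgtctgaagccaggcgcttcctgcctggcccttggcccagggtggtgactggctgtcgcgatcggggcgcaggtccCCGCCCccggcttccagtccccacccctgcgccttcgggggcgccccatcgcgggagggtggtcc
Nrg4, chr9:55283576-55283875, minus strand: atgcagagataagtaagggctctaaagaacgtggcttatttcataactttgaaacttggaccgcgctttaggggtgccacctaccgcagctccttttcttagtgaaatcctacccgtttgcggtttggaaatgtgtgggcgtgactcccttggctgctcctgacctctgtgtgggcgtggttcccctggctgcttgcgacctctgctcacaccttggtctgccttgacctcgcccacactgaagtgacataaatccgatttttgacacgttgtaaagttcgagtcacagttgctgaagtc
Egfr, chr11:16751953-16752252, plus strand: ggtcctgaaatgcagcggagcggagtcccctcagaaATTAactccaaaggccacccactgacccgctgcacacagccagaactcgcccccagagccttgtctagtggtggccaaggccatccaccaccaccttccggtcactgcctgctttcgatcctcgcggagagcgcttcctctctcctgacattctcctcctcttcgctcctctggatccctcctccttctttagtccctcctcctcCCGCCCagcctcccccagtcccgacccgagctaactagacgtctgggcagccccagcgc

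The 2 ligand windows differed in G and C content and in GC boxes, while both lacked TAAT and were above the median in CpG pairs. The Tgfa window was 70.7% G or C with 24 CpG pairs and held 2 GC boxes and no TAAT. The Nrg4 window was 51.0% G or C with 13 CpG pairs and held neither motif. In the Egfr window, 62.3% G or C, there was 1 TAAT and 1 GC box. The median over 32817 windows of mouse genes was 52.7% G or C and 7 CpG pairs. A TAAT on either strand was present in 58.0% of all windows and a GC box in 35.6%. Windows were used for 6 of the 10 genes, with 2 for Egf. The Egf windows held 1 and 2 matches to TAAT, and there was a match in neither the Btc nor the Erbb2 window. The longer homeodomain site TAATTG (or CAATTA), which contains TAAT, was found in 0 of these 7 windows and in 2626 of all. A match or its absence describes these letters only and says nothing of Msx binding.

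Tgfa encodes TGF-alpha, a ligand of EGFR made mostly by epithelial cells. On probe set 1421943_at the control signal was 95.0 and the null signal 40.4, both above the floor, so that Tgfa was 2.35-fold lower in the null array, with a log2 ratio of -1.24. Its ratio was the 122nd lowest of the 11833 usable genes. The 2 other Tgfa probe sets were under the floor in both arrays and did not point one way, with 21.2 (control) and 13.4 (null) on 1450421_at, and 9.99 and 12.1 on 1421942_s_at. The difference in Tgfa therefore rests on a single probe set.

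Nrg4 encodes neuregulin 4, a ligand of ErbB4. Probe set 1421681_at read 87.9 in control and 29.8 in null cells. The latter was just under the floor, so that Nrg4 was at least 2.93-fold lower, and the log2 ratio of the signals as deposited was -1.56. The second probe set, 1457123_at, went the same way, from 40.2 to 22.3, at least 1.34-fold lower. Since Nrg4 entered through the control array alone on both probe sets, the sign of both differences follows from the filter.

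Both differences are dim, and their size depended on how dim signals were handled. With 32 added to every signal before taking logs, the log2 ratios were -0.81 for Tgfa and -0.96 for Nrg4, and neither passed 2-fold. With the floor at the 65th percentile, a signal of 81.8 (control) and 81.0 (null), the control signals themselves lay close to the floor and the ratios were -0.23 and -0.12. Nrg4 had -0.98 with the median of its 2 probe sets in place of the brighter one. As a scale, a single probe set's log2 ratio had an SD of 0.32 in the dimmest tertile of 4690 genes with 2 probe sets above the floor, computed from the disagreement within genes. That SD leaves out differences between mice, pools or hybridizations.

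Hbegf encodes HB-EGF, the ligand tied to blastocyst attachment, and had no clear direction. On 1418350_at the control signal was 307 and the null signal 271, a log2 ratio of -0.18, and on 1418349_at it was 101 and 125, a log2 ratio of 0.31. All 4 signals were above the floor, and the 2 probe sets had opposite signs.

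The remaining ligands were under the floor in both arrays on every probe set. Ereg, for epiregulin, read 7.58 in control and 4.02 in null cells. Egf, for epidermal growth factor itself, read 17.8 and 11.5, and Nrg1, for neuregulin 1, read 13.2 and 9.01. Btc, for betacellulin, read 18.4 and 11.1 on 1435541_at and 0.534 and 5.00 on 1421161_at, 2 probe sets of opposite sign. Signals this low do not show whether these genes were silent, and no fold is given for them. Of family genes outside the 10 with a probe set, Nrg2 was within 2-fold at 59.3 and 53.4, while Epgn, Nrg3 and Erbb4 were under the floor in both arrays. Areg, also of this family, had no probe set of its own and is not covered here. Erbb4, the receptor of neuregulin 4, read 3.09 and 3.14 on its 1 probe set.

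**Figure D1:**
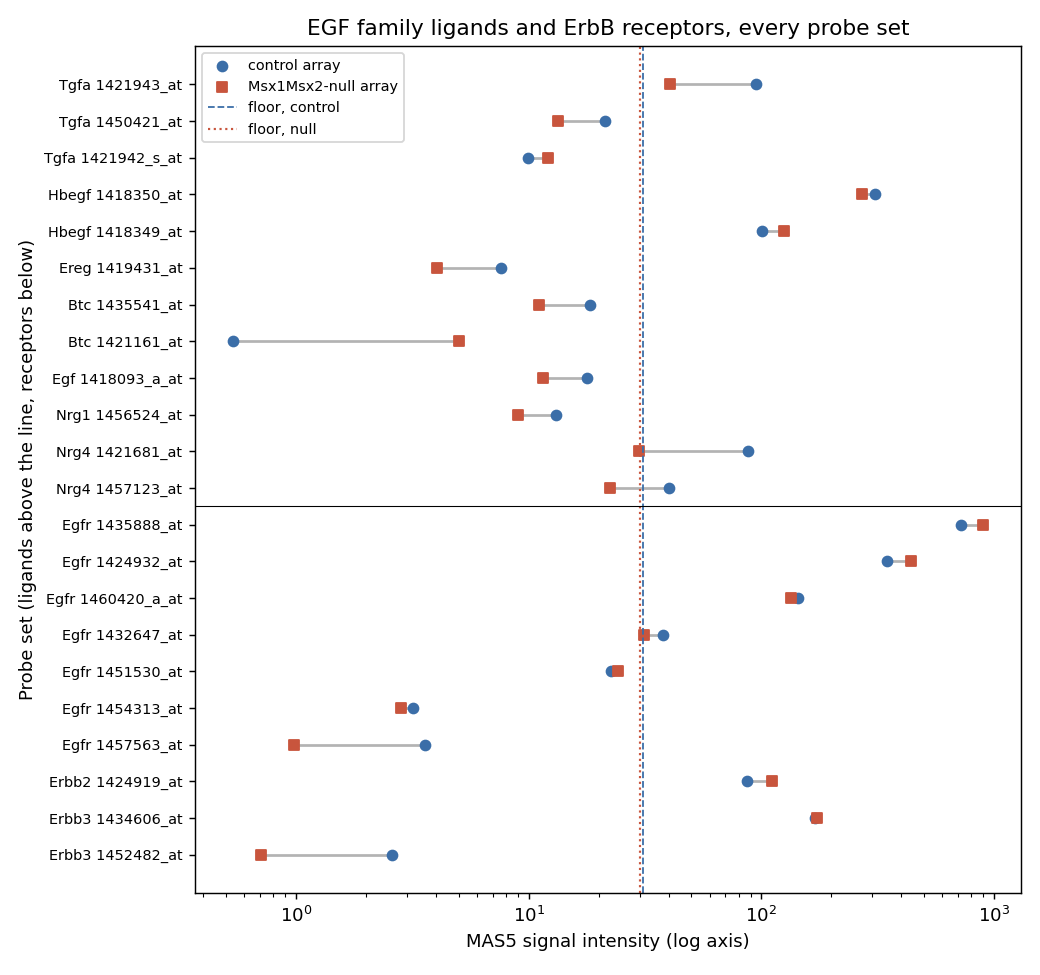
MAS5 signal intensity (log axis) of each of the 22 probe sets in control cells (blue circles) and null cells (red squares), 1 array each, with the floor of each array as a vertical line. The brightest Tgfa probe set and both Nrg4 probe sets sit to the left in the null array, while the bright probe sets of Egfr, Erbb2 and Erbb3 lie close together.

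Egfr encodes the receptor of TGF-alpha, EGF and HB-EGF and was read by 7 probe sets, of which 4 were above the floor in both arrays. The brightest, 1435888_at, read 722 in control and 896 in null cells, a log2 ratio of 0.31. The next, 1424932_at, had 348 and 440, a log2 ratio of 0.34. The other two, 1460420_a_at and 1432647_at, had 144 and 134 and 37.7 and 31.2, with log2 ratios of -0.10 and -0.27. The 2 brighter probe sets were thus higher and the 2 dimmer ones lower in the null array, all by less than 1.3-fold, and the median of the 4 was 0.10. The remaining 3 probe sets, 1451530_at, 1454313_at and 1457563_at, were under the floor at 22.6 and 24.3, 3.18 and 2.83, and 3.60 and 0.979.

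Erbb2 encodes the receptor partner without a ligand of its own. It had a single probe set, 1424919_at, which read 86.5 in control and 111 in null cells, a log2 ratio of 0.36. This is close to the SD of 0.32 for a probe set of that brightness. Erbb3, the neuregulin receptor with the weak kinase, read 171 and 174 on 1434606_at, a log2 ratio of 0.03, the smallest of the 6 usable genes. On 1452482_at, its other probe set, both signals were under the floor, at 2.59 and 0.711.

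**Figure D2:**
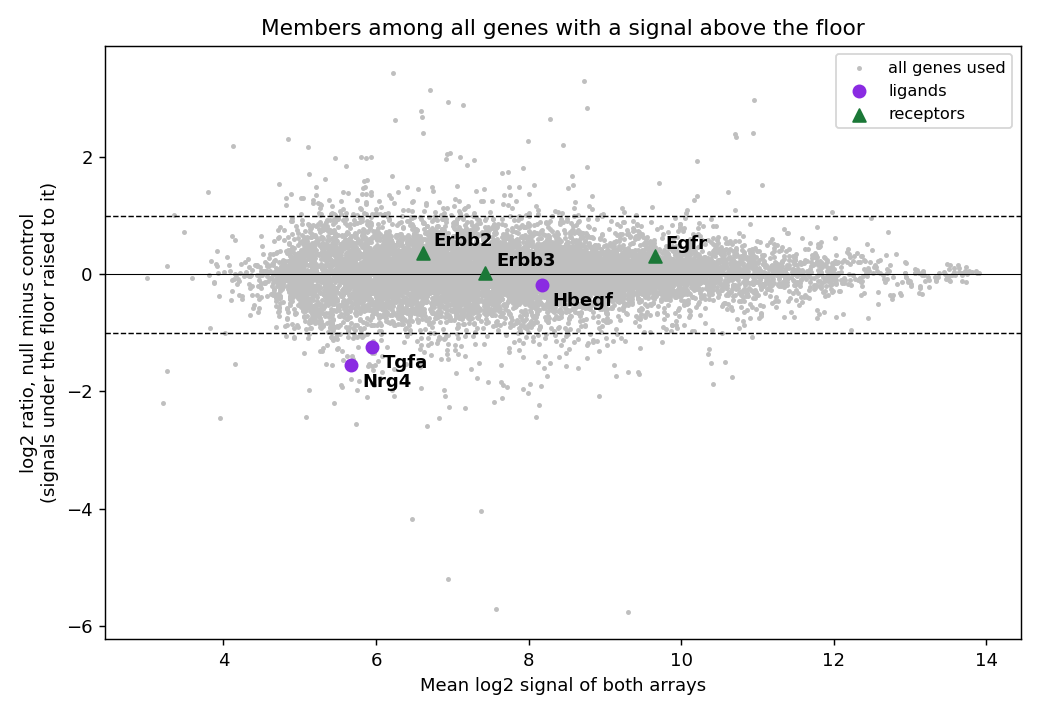
Log2 ratio of null to control signal (signals under the floor raised to it) against the mean log2 signal of both arrays for the 11833 usable genes (grey), with the 3 usable ligand genes (violet circles) and 3 receptor genes (green triangles), and dashed lines at 2-fold. Nrg4 and Tgfa lie below the lower line among dim genes, and Hbegf, Erbb3, Erbb2 and Egfr lie between the lines.

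Genes that act in ligand release or in ErbB signalling, inhibitors included, were mostly at like levels in both arrays. Of 76 listed genes in 6 groups, 69 had a probe set and 66 were usable, and of these 29 had positive and 37 negative log2 ratios (52.3% of all usable genes were positive), with a median of -0.03 against 0.02 over all usable genes. None was 2-fold higher and 1 was past 2-fold lower, against the 1.59% and 1.80% of all usable genes given above. These lists hold genes used by many receptors and not by ErbB proteins alone.

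Among 11 usable genes that act in ligand release, 0 passed 2-fold and the median was -0.11. One of them, Timp3, encodes an inhibitor of such proteases and had a log2 ratio of -0.38. Adam17, the main protease that frees TGF-alpha and HB-EGF, read 452 in control and 420 in null cells, a log2 ratio of -0.10. Adam10, the main protease for EGF and betacellulin, read 1480 and 1490. Adam12, a metalloprotease that can cut HB-EGF, had the largest ratio of the list, 937 and 1663, a log2 ratio of 0.83, with another of its probe sets of opposite sign. Adam15 followed with -0.40.

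Among 13 genes for adaptors and other signalling proteins that act close to the activated receptors, 0 passed 2-fold and the median was 0.05. Grb2, which links receptors to Ras activation, had the largest ratio, 299 and 164, a log2 ratio of -0.87, again with a second probe set of opposite sign, and Grb7, an adaptor of ErbB2, had -0.43. The 15 genes for inhibition or turnover of the receptors had a median of -0.02 and none past 2-fold. Errfi1, a feedback inhibitor induced by EGFR activity, read 3741 and 3177, a log2 ratio of -0.24. Ptprj, a receptor phosphatase, had -0.52, and Lrig1, a membrane protein that lowers ErbB levels, had 0.40.

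The Ras-ERK cascade had a median of 0.00 over 8 genes, with Nf1, a Ras inhibitor, at -0.63 (its other usable probe set had the opposite sign) and the scaffold gene Ksr1 at 0.54. The PI3K-Akt arm had a median of 0.05 over 10 genes, with the regulatory subunit gene Pik3r3 at 0.39 and the kinase gene Pdpk1 at -0.39. Of 9 feedback genes induced by ERK, 7 had negative ratios, against 47.7% of all usable genes, and the median was -0.20. Spry4, which dampens signalling by receptor tyrosine kinases, read 72.1 in control and 21.5 in null cells and was at least 2.40-fold lower. It was usable through the control array alone, so its sign, one of the 7, was fixed by the filter. Spred1 had -0.46, with 2 of its 5 usable probe sets of opposite sign, and Dusp6, the ERK phosphatase, read 556 and 546. These genes respond to FGF and other receptors too.

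Markers of several other cell types also differed between the arrays, and their part in the ligand values was not tested. Markers of the labelled cell type, stroma, were bright in both arrays, with Vim at 8372 in control and 6694 in null cells. All 14 were usable, 0 passed 2-fold, the median was 0.10, and Hoxa11 and Wt1 had the largest ratios, 0.80 and 0.75. Epithelial markers were also present in both arrays, although a step to remove epithelium was part of the isolation. Of 19 usable epithelial genes, 5 had positive and 14 negative ratios, while 47.7% of all usable genes had negative ratios. The median of the 19 was -0.15, and their signals summed to 17363 in control and 14510 in null cells. Prom1, a membrane protein gene of epithelia, was 2.82-fold lower, from 2570 to 911. The keratin gene Krt18 was 2.09-fold lower, from 2822 to 1350, and Krt19 2.05-fold higher. Prom1 and Krt18 together lost more signal than the sum did, so the lower sum rests on these 2 genes. Epcam, the adhesion protein that defines epithelium, read 987 and 940, and Krt8 read 2255 and 1703.

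Uterine gland genes were far lower in the null array. All 8 had negative ratios and 7 passed 2-fold, against 47.7% negative and 1.80% at least 2-fold lower of all usable genes. Their signals summed to 8391 in control and 699.9 in null cells. For 3 of the 8, Ttr, Prss29 and Prss28, the control signal alone was above the floor, so the filter fixed their sign. Foxa2, the transcription factor that defines the gland epithelium, read 397 and 87.4, 4.54-fold lower. The secreted products Spink1, Ttr, Prss29 and Prss28 were 54.6-fold and at least 36.8-fold, 18.2-fold and 5.45-fold lower. The gland chemokine Cxcl15 was 4.24-fold lower and the cytokine Lif 2.39-fold lower. The median was -2.31 with signals raised to the floor. Whether fewer gland cells or gland transcripts had a part in the Tgfa and Nrg4 values was not tested.

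Macrophages, a source of HB-EGF and epiregulin, had lower markers as well. All 13 were negative, Itgam through the control array alone, with a median of -0.42 and summed signals of 10696 and 7662. Fcgr3 and Mrc1 were 2.12-fold and 2.03-fold lower, and the defining receptor gene Csf1r read 1286 and 909. Of all usable genes, 47.7% were negative and 1.80% at least 2-fold lower. All 10 endothelial genes were negative, against the same 47.7%, with a median of -0.73 and summed signals of 4915 and 3197. Emcn was at -0.89 and Pecam1 at -0.80 (325 and 186), and 0 passed 2-fold. The 8 smooth muscle genes had a median of 0.40 and summed signals of 12192 and 15844, led by Cnn1 at 0.70 and Actg2 at 0.66. Schwann cells depend on neuregulin 1 and ErbB3. Their defining gene Sox10 was under the floor at 10.4 and 14.9, and 2 of 6 genes were usable. Of these Ngfr, which other cells make too, was 2.54-fold higher, from 286 to 726, and Mbp had -0.22.

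Immediate early genes, which growth factor signalling and tissue digestion both induce, were lower in 13 of 14 usable cases, against 47.7% of all usable genes. Egr3 was 2.85-fold, Atf3 2.56-fold and Egr2 2.24-fold lower, while 1.80% of all usable genes were at least 2-fold lower. The median was -0.51, and the summed signals were 40249 and 29520. The ratio of 3' to 5' signal, a measure of RNA degradation, was 0.967 (control) and 1.28 (null) on the Gapdh control probe sets, and 1.80 and 2.33 on those of Actb. The part of digestion and RNA quality in the ligand values was not tested. As a check of the labels, Msx1 read 1581 and 23.0 (at least 52.6-fold lower), and Msx2 read 63.7 and 14.5, at least 2.12-fold lower. Whether the Msx1 and Msx2 probe sets lie in the deleted segments is not given in the sources used here.

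**Figure D3:**
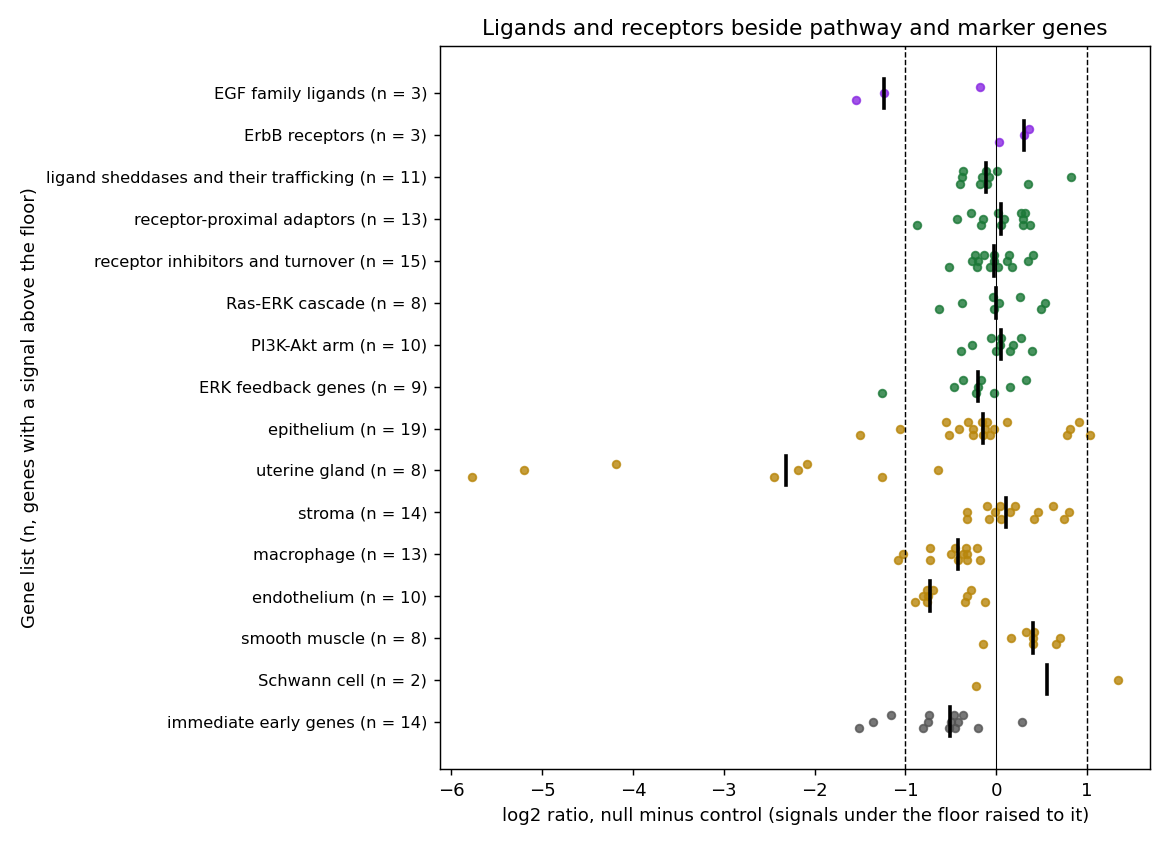
Log2 ratio of null to control signal (signals under the floor raised to it) for each usable gene, with 1 line of points per list, the list's median as a black bar and dashed lines at 2-fold. Of the pathway lists (green), 1 gene, Spry4, lies beyond 2-fold, while 7 of 8 gland genes do, and Tgfa and Nrg4 are the 2 ligand points left of the lower line.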

How the data were processed

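The authors deposited 1 linear intensity for each probe set of each array. The submitters' processing notes name MAS5 and Affymetrix Expression Console 1. MAS5 subtracts background and mismatch signal, which makes ratios of dim probe sets unstable. The mean of each array after trimming 2% at each end was 150.0, so both were already scaled. Detection calls and the scaling settings are not given in the sources used here. The table held 45101 probe sets, 64 of them controls. All 22 member probe sets matched the RefSeq gene table (GRCm38.p6) by Entrez ID, and 0 symbols changed. Log2 ratios are null minus control. The floor was the 50th percentile of the non-control probe sets of each array. A signal under it was raised to it, so that such a fold is a lower bound. With 1 array per genotype no p-value was computed, and the number of arrays limits the precision. Python 3.11.15 with pandas 2.3.3 was used, and the ratios and the noise SD were tested on simulated data. That simulation gave bright and dim probe sets the same noise SD, so it does not cover the larger spread of dim ones. Alternatives were no floor, a higher floor, the median over probe sets, leaving out probe sets that may match several transcripts (_s_at, _x_at and _a_at), quantile normalization, 32 added to signals, and a 1.5-fold size. The genes named were all members with every probe set, the other family genes, Msx1 and Msx2, and of each list every gene past 2-fold, otherwise the 2 largest ratios, with fixed defining markers. Adam17, Adam10, Timp3, Errfi1, Dusp6, Spred1 and Mbp were named after their values were seen, as were the promoter motifs. The members and lists were chosen with earlier results of these data known. Of 190 listed genes, 179 had a probe set of their own.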

Additional observations from a re-analysis of the deposited data

How the results depend on the processing

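No paired analysis was possible because each genotype had 1 array. Each of 27 results was computed under 7 alternatives, and 165 of 189 values stayed within the spread of a single probe set or within 1.5 times the count. Part of this was fixed in advance, since a 1.5-fold size leaves every ratio and median as it was. Dropping the floor cannot change a member above it in both arrays. No usable member had a brightest probe set ending in _s_at, _x_at or _a_at. List medians were held to the same single probe set SD of 0.27, a wide limit for a median of many genes. The called ratios, of Tgfa and Nrg4, kept their sign. Tgfa had only 1 usable probe set and the filter fixed the sign of Nrg4, so this shows little. With no floor all 10 members were used, still with Tgfa and Nrg4 as the 2 past 2-fold, and the gland median was -3.72. Over the arrays 1797 genes were then higher and 1772 lower, 9.88% and 9.74% of 18193 genes. With the floor at the 65th percentile 0 members were past 2-fold, and 97 genes were higher and 123 lower, 1.00% and 1.27% of 9655. With 32 added to signals, 0 members were past 2-fold, and 99 genes were higher and 129 lower, 0.84% and 1.09% of 11833. With the median over probe sets 1 member, Tgfa, was past 2-fold lower, and Hbegf turned from -0.18 to 0.06. In the pathway lists the count of lower genes went from 1 to 0 under these 3 alternatives. At 1.5-fold, 804 genes (6.79%) were higher and 819 (6.92%) lower, 1 and 3 of them in the pathway lists, and the same 2 members were lower. Without _s_at, _x_at and _a_at probe sets the endothelial median was -0.34. Signal over background was a limit for the ligands, of which 4 of 7 were under the floor in both arrays.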
